A study of Mus musculus with 12 samples.

Results

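The genes described are 10 members of the Serpina family of secreted protease inhibitors, Serpina1a, Serpina1b, Serpina1c, Serpina1d, Serpina1e, Serpina3k, Serpina3m, Serpina3n, Serpina12 and the pseudogene Serpina4-ps1, out of 36047 genes in the files. They were selected on measured values of the same diet comparisons, so their levels, fold changes and calls are given as a description without p, and no call of a member counts as evidence. Liver RNA of 12 male C57Bl/6J mice, 5 to 6 months old, was sequenced after 7 days on the diets, with 3 mice in each of 4 groups. Replicate numbers below were given in accession order within each group and are only names. All diets lacked cysteine. RF.Ctrl mice ate a regular-fat control diet and HF.Ctrl mice a high-fat control diet, while RF.SAAR and HF.SAAR mice ate the same kinds of diet restricted in sulfur amino acids, with less methionine and glutamic acid added to balance it. The mice were housed singly and went without food for 4 h before collection. According to the paper, the livers came from mice that had been injected with deuterium oxide and then drank water enriched in it. The files hold 16203094 to 21230092 estimated counts for each mouse.

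Serpins stop proteases by offering an exposed loop, the reactive-centre loop, as bait. The protease cleaves it and is trapped as the serpin changes shape, so the bases that encode the loop set which proteases a serpin meets. Hepatocytes secrete most of these inhibitors into plasma. Alpha-1-antitrypsin, the product of the human SERPINA1 gene, restrains neutrophil elastase, and mice carry several close copies of that gene.

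The 5 Serpina1 copies are shown first, over the stretch that encodes the loop, because it held a larger share of differing bases than the rest of the reading frame. Each has an open reading frame of 413 codons, and the lines give coding bases 1081 to 1170 of the most abundant transcript, taken from the GENCODE transcripts of GRCm38. Capitals mark bases that differ among the 5 copies.
Serpina1a: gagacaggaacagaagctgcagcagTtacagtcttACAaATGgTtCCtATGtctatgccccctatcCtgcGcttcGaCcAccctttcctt
Serpina1b: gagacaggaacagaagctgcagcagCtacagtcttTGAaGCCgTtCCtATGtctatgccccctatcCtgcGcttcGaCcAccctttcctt
Serpina1c: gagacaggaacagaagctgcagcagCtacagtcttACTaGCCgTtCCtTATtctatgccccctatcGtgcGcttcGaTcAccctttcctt
Serpina1d: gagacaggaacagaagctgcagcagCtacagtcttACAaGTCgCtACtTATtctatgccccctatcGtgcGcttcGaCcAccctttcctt
Serpina1e: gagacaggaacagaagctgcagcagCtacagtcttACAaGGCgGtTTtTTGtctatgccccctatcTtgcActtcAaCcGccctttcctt
Of the 90 bases, 18 differed among the copies (20%), compared with 68 of the other 1149 coding bases (5.92%). Serpina1e held 8 bases found in no other copy, whereas Serpina1a held 3 and the other copies 2 each. Over the whole reading frame, pairs of copies shared between 96.29 and 98.47% of their bases.

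Such likeness limits how far reads can be assigned. Of the 31-base words in its most abundant transcript, Serpina1a had 10% that occurred in no other gene, Serpina1c 17.8%, Serpina1d 35.3%, Serpina1b 35.6% and Serpina1e 43.6%. A window of 150 bases, the length of a read, held at least 1 such word in 46.4% of positions for Serpina1a, in 46.7% for Serpina1c and in 90.6% for Serpina1e. The paper reports paired reads, whereas each window stands for a single read. A pair can hold such a word in either read, so the share for pairs can be higher, and it was not computed. Gm8893, a gene outside the members, also shared 31-base words with every Serpina1 copy. Reads of these genes were therefore divided among them by likelihood. A value for a single Serpina1 copy is thus less certain than its spread between mice shows. Serpina12 and Serpina4-ps1 shared no 31-base word with another gene, and Serpina3k, Serpina3m and Serpina3n had such a word in at least 99.67% of windows.

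**Figure D1:**
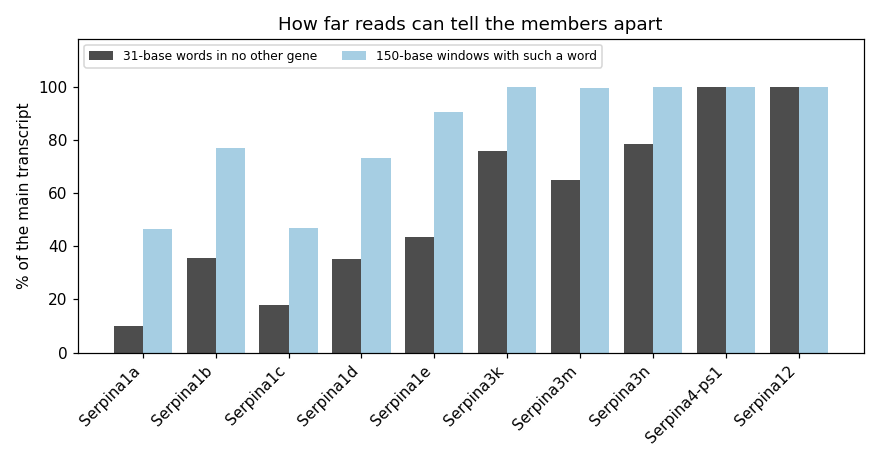
Share of the most abundant transcript of each member, in %, made of 31-base words found in no other gene (dark bars) and share of 150-base windows that hold such a word (light bars). Serpina1a is lowest at 10 and 46.4%, and Serpina12 and Serpina4-ps1 reach 100%.

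All members lie in a cluster on chromosome 12 of GRCm38. The Serpina1 copies are on the minus strand, with Serpina1e (ENSMUSG00000072849) at 103946931 to 103958975 and Serpina1c (ENSMUSG00000079015) at 103894926 to 103904887. Serpina12 (ENSMUSG00000041567) follows at 104028769 to 104044443, Serpina4-ps1 (ENSMUSG00000092075) at 104080649 to 104086724, Serpina3k (ENSMUSG00000058207) at 104338486 to 104346144 and Serpina3n (ENSMUSG00000021091) at 104406729 to 104414329. The annotated Serpina3m starts at the same base as Serpina3k, and the annotated Serpina1b spans Serpina1d.

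The samples carried the markers of liver. The summed hepatocyte markers, of which 7 of 8 were found and tested, ranged from 71726 to 93273 normalized counts (CPM, counts scaled to a common library size with the TMM factors of edgeR), and albumin (Alb) from 50384 to 69762. These sums were 78509, 93273 and 87518 in RF.Ctrl and 78592, 71967 and 71765 in RF.SAAR mice. On high fat they were 86844, 80796 and 74366 in HF.Ctrl and 76728, 82309 and 71726 in HF.SAAR mice. Whether these differences bear on the members was not tested. Markers of other cell types were also present. The 15 pancreatic acinar markers summed to between 34.5 and 66.5 CPM in 7 mice, and to 942 in RF.Ctrl replicate 1, 1074 in HF.Ctrl replicate 1, 3837 in HF.Ctrl replicate 2, 2436 in HF.SAAR replicate 2 and 11394 in HF.SAAR replicate 3. Ctrb1 was the most abundant of them, at 2.19 to 2494 CPM. Fits without these 5 mice are given below, which do not show the cause of a difference. The 8 macrophage markers summed to 266 to 434 CPM, led by Clec4f, the 6 adipocyte markers to 11.7 to 75.2 CPM, led by Fabp4, and the 8 neutrophil markers to 1.44 to 4.81 CPM, led by S100a9. In bulk tissue, fewer cells of a type and less RNA per cell cannot be told apart.

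Per unit of length, Serpina1c had the highest mean over the 12 mice, 6528 TPM, the deposited length-scaled abundance, ahead of Serpina1e at 6007, Serpina3k at 4995, Serpina1b at 4965, Serpina1a at 3971 and Serpina1d at 2368. Serpina3m at 213 TPM, Serpina3n at 204, Serpina4-ps1 at 106 and Serpina12 at 22.3 followed. These means pool the groups: Serpina4-ps1 was at a mean of 244 TPM in RF.Ctrl and 4.54 in HF.SAAR mice, and Serpina1e at 2726 in HF.SAAR mice, below 4 other members there. The first 4 of this order were not separated: Serpina1c was above Serpina1e in 7 of 12 mice, Serpina1e above Serpina3k in 7 and Serpina3k above Serpina1b in 6. The steps from Serpina1b to Serpina1a, to Serpina1d and to Serpina3m held in all 12 mice, and those from Serpina3m to Serpina3n, to Serpina4-ps1 and to Serpina12 in 8, 10 and 8. The 10 members together made up 3.86 to 4.15% of all estimated counts in RF.Ctrl mice and 2.91 to 3.42% in RF.SAAR mice. The share was 3.65 to 3.92% in HF.Ctrl mice and 2.65 to 2.98% in HF.SAAR mice, so these shares did not overlap between Ctrl and SAAR mice at either fat level; the summed TPM did on regular fat.

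With restriction on regular fat, all 10 members were below their level in controls on the TMM scale. By mean TPM, RF.SAAR mice exceeded their controls for Serpina1a (4225 against 4037) and Serpina1e (7498 against 7300), and the other members stayed below. On the TMM scale edgeR called 4 of the 10 lower (Serpina1c, Serpina1d, Serpina3k and Serpina12) and 0 higher, at an adjusted p under 0.05. Among all 14670 genes tested, 0.886% were called lower and 0.6% higher. In 8 of the 10 members the RF.SAAR mice were all below the RF.Ctrl mice and in 0 all above, which held for 9.7% and 8.51% of all genes. With restriction on high fat, 8 members were below and 2 above their level in controls on the TMM scale (Serpina3m, and Serpina1b at 0.02, which was at -0.01 without HF.Ctrl replicate 3). In mean TPM, Serpina1a, Serpina1d and Serpina3n were also above controls, at 3598, 2204 and 204 in HF.Ctrl and 4024, 2421 and 228 in HF.SAAR mice. On the TMM scale 4 members were called lower (Serpina1c, Serpina1e, Serpina3k and Serpina4-ps1) and 0 higher, against 0.961% and 1.01% of all genes. The HF.SAAR mice were all below the HF.Ctrl mice in 8 members and all above in 0, which held for 8.97% and 8.89% of all genes. Because the members were selected on these comparisons, nothing is read from their counts. The median log2 fold change (log2FC) was -0.40 over the members on regular fat and -0.31 on high fat, beside 0.00 over all genes tested in both.

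**Figure D2:**
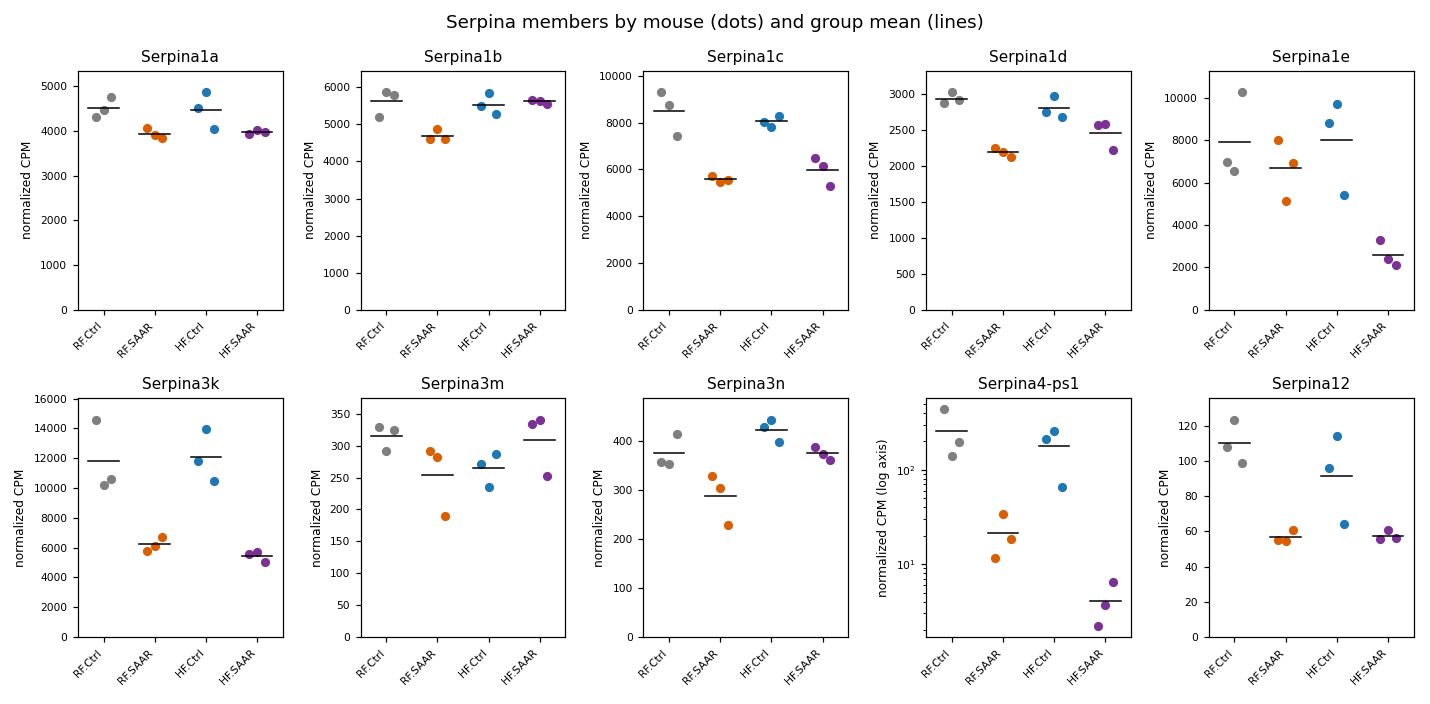
Normalized CPM of the 10 members in each mouse (dots, 3 per group) with the group mean (lines); the axis of Serpina4-ps1 is logarithmic. Serpina3k is lower in all SAAR mice than in all Ctrl mice, and Serpina1e is low in HF.SAAR mice, at 2121 to 3316.

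Scaling bears on the small differences. For Ctrl libraries the TMM factors spanned 0.863 to 0.998 and for SAAR libraries 0.98 to 1.11, and with library size alone as the scale the median log2FC over all genes moved to 0.16 on regular fat and to 0.17 on high fat. With library size alone, 66 of all genes were called lower and 359 higher on regular fat. On high fat 80 were called lower and 639 higher. On that scale Serpina1a moved from -0.17 to 0.00 on high fat and changed sign, and Serpina1b moved from -0.26 to -0.10 on regular fat. Over all settings run, Serpina1b reached 0.19 and Serpina3m 0.38 on high fat, and Serpina1a -0.03 on regular fat. Fold changes and statements on overlap in the counts of members above, and below, are on the TMM scale unless another scale is named. As shares of all counts, the groups still did not overlap for Serpina1c, Serpina1d, Serpina3k, Serpina4-ps1 and Serpina12 on regular fat and for Serpina1e, Serpina3k, Serpina4-ps1 and Serpina12 on high fat, whereas Serpina1a and Serpina3n overlapped at both fat levels, Serpina1b on regular fat and Serpina1c and Serpina1d on high fat. On high fat Serpina1b was then higher in all restricted mice. Other settings changed which members were called. Tested by transcript, 0 of the 10 were called on regular fat. The values of the main transcripts were about unmoved, at -0.92 for Serpina3k, -0.95 for Serpina12, -0.60 for Serpina1c and -0.42 for Serpina1d. With the compared groups alone the calls of Serpina1d on regular fat and of Serpina1c and Serpina4-ps1 on high fat were lost. DESeq2 called 6 members on regular fat, with Serpina1b (-0.25) and Serpina4-ps1 (-3.58) added, and 5 on high fat, with Serpina12 (-0.66) added. Of all 23891 genes it called 591 on regular fat and 595 on high fat.

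Among the Serpina1 copies, which encode the alpha-1-antitrypsins, the sum of all 5 is free of the division of reads between them. The sum is not free of a division of reads with Gm8893. It was 28672, 28663 and 31154 CPM in the RF.Ctrl mice and 24658, 21598 and 23080 in the RF.SAAR mice. On high fat it was 29598, 31243 and 25742 CPM in HF.Ctrl mice and 21958, 20737 and 19172 in HF.SAAR mice. On this scale the SAAR mice were below the Ctrl mice without overlap at both fat levels. As a share of all counts the regular-fat groups overlapped, with 2.71% in RF.SAAR replicate 1 and 2.68% in RF.Ctrl replicate 1, and in TPM the groups overlapped at both fat levels. The log2FC of the sum was -0.35 (SE 0.09, n = 3 and 3) on regular fat and -0.49 (SE 0.09) on high fat, and scaling by library size alone gave -0.19 and -0.31. Without the mice with high acinar markers the difference on high fat was smaller, as given in the last section.

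Serpina1c, the copy with the highest mean although not separated from Serpina1e, was at 9289, 8754 and 7423 CPM in RF.Ctrl and at 5700, 5477 and 5569 in RF.SAAR mice. It was at 8027, 7831 and 8300 CPM in HF.Ctrl and at 6475, 6134 and 5282 in HF.SAAR mice. All SAAR mice were below all Ctrl mice, with a log2FC of -0.60 (SE 0.10) on regular fat and -0.43 (SE 0.10) on high fat. The call on high fat depended on single mice: it was lost without any 1 of the 6 high-fat mice or RF.Ctrl replicate 2, with log2FC values from -0.50 to -0.35. It was also lost with library size alone (-0.27) and when tested by transcript (-0.44).

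Serpina1e is the copy whose loop stretch differs most from the rest. Its level was 6998, 6559 and 10265 CPM in RF.Ctrl mice and 8031, 5140 and 6920 in RF.SAAR mice, and these groups overlapped. On high fat it was 8831, 9741 and 5442 CPM in controls and 3316, 2383 and 2121 in restricted mice, and the HF.SAAR mice were below every other mouse. The log2FC was -0.25 (SE 0.27) on regular fat and -1.62 (SE 0.27) on high fat. The regular-fat value was -0.40 without RF.SAAR replicate 1, -0.09 without RF.SAAR replicate 2 and -0.02 without RF.Ctrl replicate 3. The call on high fat was lost without HF.Ctrl replicate 1 (-1.54), HF.SAAR replicate 2 (-1.57) or HF.SAAR replicate 3 (-1.49). Without the 5 mice with over 100 CPM of acinar markers, a setting chosen after seeing the data, it was -0.73 and not called; HF.Ctrl replicate 3 and HF.SAAR replicate 1 were then the only mice of their groups and were assumed to vary like the others.

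As a share of the summed Serpina1 counts, Serpina1e made up 24.4, 22.9 and 33.0% in RF.Ctrl mice, 32.6, 23.8 and 30.0% in RF.SAAR mice and 29.8, 31.2 and 21.1% in HF.Ctrl mice. In HF.SAAR mice it made up 15.1, 11.5 and 11.1%. These shares do not depend on the scaling between mice, and the HF.SAAR mice lay below the other 9. Shares add up to the whole, so a lower share of a copy raises those of others: Serpina1b made up 25.8 to 29.0% in HF.SAAR mice and 18.1 to 22.5% in the others, and Serpina1d 11.6 to 12.5% and 9.14 to 10.5%, while their log2FC on high fat was 0.02 and -0.19. Serpina1e has 2 transcripts in the files, and the minor one held 7.29 to 11.7% of its counts over all mice, with overlapping groups.

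**Figure D3:**
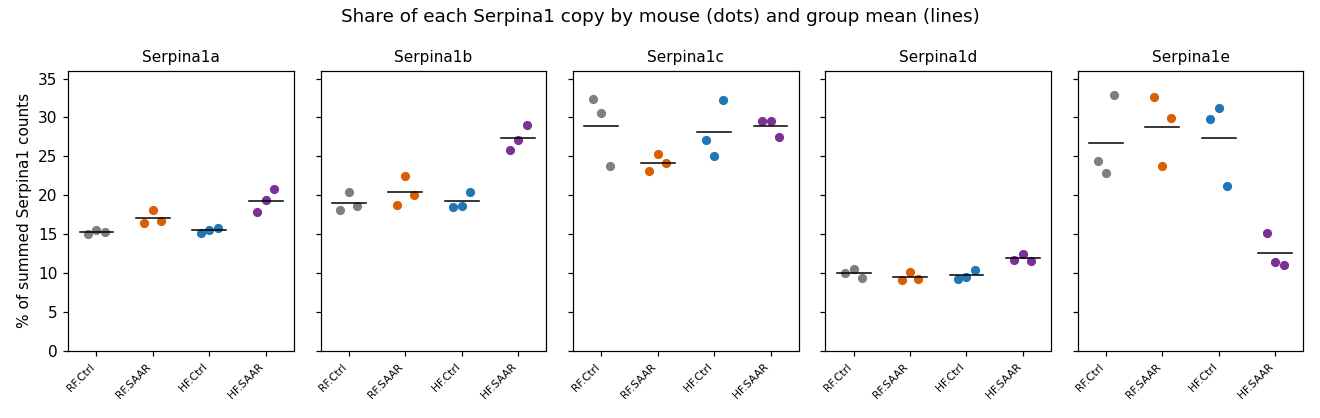
Share of each Serpina1 copy in the summed Serpina1 counts, in %, by mouse (dots) and group mean (lines). Serpina1e is at 11.1 to 15.1% in HF.SAAR mice and at 21.1 to 33.0% in the other groups.

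Serpina1d was at 2874, 3023 and 2914 CPM in RF.Ctrl mice and at 2255, 2196 and 2129 in RF.SAAR mice, without overlap. Its log2FC was -0.42 (SE 0.08) on regular fat and -0.19 (SE 0.08) on high fat, where the groups did not overlap either. The call on regular fat was lost when any 1 of the 6 regular-fat mice was left out, with values from -0.44 to -0.39, and with library size alone (-0.26). With library size alone the high-fat value was -0.02, and as shares of all counts the high-fat groups overlapped. Serpina1a had log2FC values of -0.20 (SE 0.08) and -0.17 (SE 0.08), and Serpina1b of -0.26 (SE 0.08) and 0.02 (SE 0.08). On high fat, Serpina1a was at -0.11 without HF.Ctrl replicate 2, Serpina1d at -0.12 without HF.SAAR replicate 3, and Serpina1b at 0.06 without HF.Ctrl replicate 2, 0.01 without HF.SAAR replicate 2 and -0.01, with a changed sign, without HF.Ctrl replicate 3. Over all settings run, the high-fat value of Serpina1b ran from -0.01 to 0.19. Serpina1b was at 4613 to 4867 CPM in RF.SAAR mice and at 5561 to 5664 in HF.SAAR mice, so the restricted mice of the fat levels did not overlap.

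Promoters are shown for 3 Serpina1 copies, whose log2FC on high fat ranged from 0.02 to -1.62. Only the 100 bases around GTTAAT were compared between copies, and whether promoter bases bear on the fold changes was not tested. The promoter table used, taken from RefSeq (GRCm38.p6), matched 7 of the 10 members and lacked Serpina3k, Serpina3m and Serpina4-ps1. The lines are aligned on GTTAAT and not on the starts: it begins 26 bases before the RefSeq start in Serpina1b, 27 in Serpina1c and 78 in Serpina1e, so the lines of Serpina1b and Serpina1c run past the start. Each line is 100 bases of the minus strand, at chr12:103738166-103738265 for Serpina1b, chr12:103904928-103905027 for Serpina1c and chr12:103956926-103957025 for Serpina1e. Capitals mark GTTAAT, letters known from the recognition sequence of the liver factor HNF1, searched on both strands after the promoters had been seen.
Serpina1b: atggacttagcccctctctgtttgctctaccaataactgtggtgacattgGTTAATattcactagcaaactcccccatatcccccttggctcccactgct
Serpina1c: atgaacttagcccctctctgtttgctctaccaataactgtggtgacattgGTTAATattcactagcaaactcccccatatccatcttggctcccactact
Serpina1e: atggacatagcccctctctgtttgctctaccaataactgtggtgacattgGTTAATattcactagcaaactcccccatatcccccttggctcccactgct
GTTAAT occurred once in the 300-base promoter of each of the 5 Serpina1 copies and on neither strand in those of Serpina3n and Serpina12. Of 32851 promoters of that length, 2332 (7.10%) held it. Over the 100 bases, Serpina1b and Serpina1e differed at 1 base, and the least alike pair, Serpina1c and Serpina1d, at 9. A match describes letters in the window and nothing of the factor.

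Serpina3k, a relative of antichymotrypsin known for binding tissue kallikrein, was the most abundant member outside the Serpina1 group. It was at 14579, 10195 and 10614 CPM in RF.Ctrl mice and at 5790, 6119 and 6740 in RF.SAAR mice. High-fat values were 11826, 13966 and 10469 CPM in HF.Ctrl and 5602, 5730 and 5066 in HF.SAAR mice. Every SAAR mouse was below every Ctrl mouse, with log2FC values of -0.92 (SE 0.14) on regular fat and -1.14 (SE 0.14) on high fat. Each call held in all 12 fits that left out 1 mouse, at -1.02 to -0.74 and -1.24 to -1.03, and with library size alone the values were -0.76 and -0.97. Without the 5 mice with high acinar markers, the call on high fat was lost at a value of -0.92.

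The other Serpina3 members were much less abundant. Serpina3n, an acute-phase inhibitor, was at 359, 354 and 415 CPM in RF.Ctrl mice and at 329, 305 and 229 in RF.SAAR mice, and on high fat at 429, 444 and 398 in controls and at 389, 375 and 362 in restricted mice. Its log2FC was -0.38 (SE 0.12) on regular fat and -0.18 (SE 0.12) on high fat, and neither pair of groups overlapped on the TMM scale. Without RF.SAAR replicate 3 the regular-fat value was -0.24. With library size alone the values were -0.22 and 0.00, as shares of all counts both pairs overlapped, and the mean TPM was 204 in HF.Ctrl and 228 in HF.SAAR mice. Serpina3m was at -0.31 (SE 0.16) and 0.22 (SE 0.16), and its groups overlapped in both comparisons. Its range over single mice was 189 to 341 CPM. Leaving out RF.SAAR replicate 3 moved the regular-fat value to -0.13, and the high-fat value was 0.14 without HF.Ctrl replicate 2 or HF.SAAR replicate 2 and 0.35 without HF.SAAR replicate 3. Summed, the 3 Serpina3 members had log2FC values of -0.89 (SE 0.13) and -1.05 (SE 0.13), most of it from Serpina3k.

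Serpina12 encodes vaspin, an inhibitor of kallikrein 7 described in adipose tissue. It was at 108, 123 and 98.7 CPM in RF.Ctrl mice and at 55.4, 54.5 and 60.5 in RF.SAAR mice. On high fat it was at 95.8, 114 and 64.2 CPM in HF.Ctrl and at 55.65, 60.87 and 55.96 in HF.SAAR mice. The groups did not overlap, but on high fat the gap rested on HF.Ctrl replicate 3, which lay close to the restricted mice. The log2FC was -0.95 (SE 0.17) on regular fat, called, and -0.67 (SE 0.16) on high fat, not called. The first call was lost without RF.SAAR replicate 1 (-0.93) or RF.Ctrl replicate 2 (-0.86), and a call on high fat was gained without HF.Ctrl replicate 3 (-0.87). The high-fat value nearest to 0 among the fits that left out 1 mouse was without HF.Ctrl replicate 2 (-0.48, not called), and without the 5 mice with high acinar markers it was -0.23. A call on high fat was also gained with no filter (-0.66), with at least 10 counts in every mouse (-0.67) and with DESeq2 (-0.66). In TPM the high-fat groups overlapped.

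Serpina4-ps1 is annotated as an unprocessed pseudogene, related to the gene of kallistatin, so no inhibitor is assigned to it. It was at 443, 141 and 196 CPM in RF.Ctrl mice and at 11.7, 34.4 and 18.6 in RF.SAAR mice. On high fat it was at 215, 261 and 66.0 CPM in HF.Ctrl and at 2.20, 3.67 and 6.41 in HF.SAAR mice. All SAAR mice were below all Ctrl mice, and the HF.SAAR mice were below all RF.SAAR mice. The log2FC was -3.59 (SE 0.73) on regular fat, not called, and -5.45 (SE 0.81) on high fat, called. Over the 12 fits that left out 1 mouse, it ran from -4.098 to -2.965 on regular fat and from -5.938 to -5.09 on high fat. In every setting run, also without the mice with high acinar markers, the high-fat value was at or below -4.92. The call on high fat was lost without HF.SAAR replicate 1 (-5.16) or HF.SAAR replicate 2 (-5.38), and a call on regular fat was gained without HF.Ctrl replicate 3 (-3.59), with library size alone (-3.43), with at least 10 counts in every mouse (-3.60) and with DESeq2 (-3.58).

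**Figure D4:**
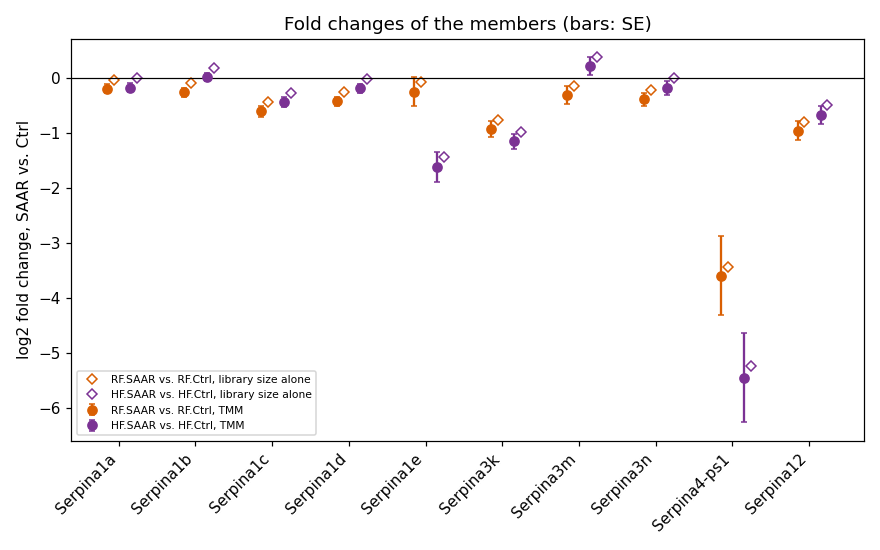
Log2FC values of the members with restriction, on regular fat and on high fat, with the SE as bars on the TMM scale (filled) and with library size alone (open). Serpina4-ps1 is lowest at -3.59 and -5.45, and Serpina1e is at -0.25 and -1.62.

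Between fat levels, edgeR called 0 of the 10 members in HF.SAAR vs. RF.SAAR, where 0.0477% of all genes were called and 4 members had an unadjusted p under 0.05, beside 820 of all 14670 genes. It called 0 members in HF.Ctrl vs. RF.Ctrl, where 0% of all genes were called and 0 members had an unadjusted p under 0.05, beside 527 of all genes. For the interaction of diet and fat it called 0 members, with 0.00682% of all genes called and 3 members at an unadjusted p under 0.05, beside 462 of all genes. DESeq2 called Serpina1e (-1.37) and Serpina4-ps1 (-2.40) in HF.SAAR vs. RF.SAAR, Serpina1e for the interaction (-1.38) and 0 members in HF.Ctrl vs. RF.Ctrl, and of all 23891 genes it called 85, 16 and 31. In edgeR the interaction of Serpina1e was -1.37 (SE 0.38). The members were selected on values of the same mice, so nothing is read from their counts here.

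The lists below were chosen with earlier results of these data known, so calls and adjusted p of their genes are given as a description. On the TMM scale edgeR called 0.886% of all 14670 genes lower and 0.6% higher on regular fat, and 0.961% and 1.01% on high fat. At an unadjusted p under 0.05 in edgeR were 1988 of these genes on regular fat and 1825 on high fat. DESeq2 called 591 and 595 of 23891 genes. The counts of the lists stand beside these.

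Of 16 listed other Serpina genes, 8 passed the filter and were tested; the pseudogenes Serpina3d-ps, Serpina3e-ps and Serpina3l-ps were not listed. With restriction on regular fat 2 were called lower and 0 higher, and on high fat 1 lower and 1 higher, with medians of -0.42 and -0.13. Serpina9, known from germinal centre B cells, ranged over 5.58 to 6.47 CPM in RF.Ctrl mice and over 0.530 to 0.719 in RF.SAAR mice, and fell (log2FC -3.28, SE 0.47, adjusted p = 0.00447, edgeR), lower in all 3 restricted mice. On high fat it fell with -2.53 (SE 0.44, adjusted p = 0.0105, edgeR), from 2.68 to 6.95 CPM in HF.Ctrl to 0.322 to 1.55 in HF.SAAR mice. Both calls held in all 12 fits that left out 1 mouse, at -3.41 to -3.19 on regular fat and -3.15 to -2.14 on high fat. With the compared groups alone the call on high fat was lost at an unmoved value of -2.53.

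Serpina3c shares 31-base words with Serpina3k, at a mean of 11796 CPM in RF.Ctrl mice, and the division of reads between them was not tested. Serpina3c ranged over 8.64 to 15.96 CPM in RF.Ctrl mice and over 4.29 to 6.93 in RF.SAAR mice (log2FC -1.12, SE 0.24, adjusted p = 0.0364, edgeR). The call was lost in 7 of the 12 fits that left out 1 mouse, namely without RF.Ctrl replicate 1 or 3, RF.SAAR replicate 1 or 2, HF.Ctrl replicate 1 or HF.SAAR replicate 1 or 3, with values from -1.32 to -0.84 over the 12 fits, and with offsets for effective length and the compared groups alone (-1.11 in each). Its high-fat levels were 9.08 to 14.5 CPM in controls and 5.56 to 6.25 in restricted mice, without overlap, at -1.01 (SE 0.24, adjusted p = 0.0506, edgeR) and not called; 5 of the 12 fits, those without RF.Ctrl replicate 1 or 2, RF.SAAR replicate 2 or 3 or HF.Ctrl replicate 3, called it, at -1.01 to -1.16, as did DESeq2 (adjusted p = 0.00566), RLE size factors, no filter, at least 10 counts in every mouse and the compared groups alone. Serpina6, the corticosteroid-binding globulin, was called higher on high fat: it was at 95.3 to 125 CPM in HF.Ctrl and at 166 to 217 in HF.SAAR mice (log2FC 0.84, SE 0.19, adjusted p = 0.0446, edgeR). Its call held in 3 of the 12 fits, those without RF.SAAR replicate 1, 2 or 3, at 0.74 to 0.95 over the 12 fits, and was lost with no filter (0.84, adjusted p = 0.0562, edgeR).

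**Figure D5:**
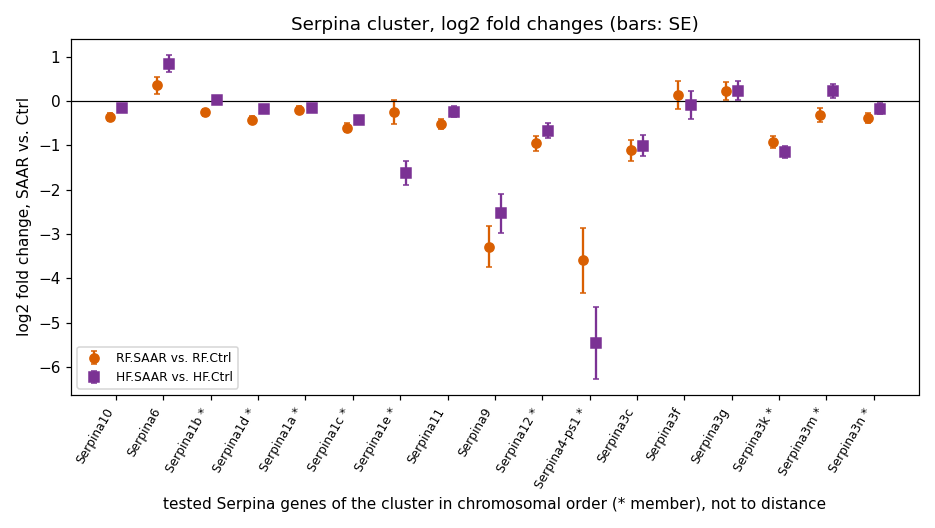
Log2FC values with restriction (points, with SE) of the tested Serpina genes of the cluster in their order along the chromosome; distances are not drawn and an asterisk marks a member. Serpina9, Serpina12 and Serpina4-ps1 lie next to each other in this order, at -3.28, -0.95 and -3.59 on regular fat.

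In that order Serpina9, Serpina12 and Serpina4-ps1 are consecutive Serpina genes, and all were below their control level at both fat levels. Their neighbours were Serpina11, at -0.52 (SE 0.12) and -0.25 (SE 0.12) and not called, and Serpina5, which reached at most 0.614 CPM and was not tested. The stretch was singled out after its values had been seen.

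Without the 5 mice with over 100 CPM of acinar markers, Serpina9 (-3.23, adjusted p = 0.00735, edgeR) and F11 (-1.21, adjusted p = 0.0220, edgeR) remained called on regular fat among the genes named from the lists. On high fat none of Serpina9, Serpina6, Agt, F11 and Mcfd2 did, with 6 of 15430 genes called in all and 1 mouse left in each high-fat group. Their values were then -3.05, 0.38, 0.81, -0.87 and 0.51, with adjusted p from 0.167 to 0.822 in edgeR. Of the member calls, those of Serpina3k (-0.74) and Serpina12 (-0.97) on regular fat held and 0 on high fat did. A higher limit, which left out 4 of these mice, was run first, and the limit was lowered after the marker sums had been seen.

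Of 10 serpin genes without a Serpina symbol, mostly secreted (Serpinh1 is kept inside the cell), all tested, 1 was called lower and 0 higher on regular fat, and 0 lower and 1 higher on high fat. Serpine2, protease nexin 1, ranged over 25.0 to 32.2 CPM in RF.Ctrl mice and over 14.0 to 18.7 in RF.SAAR mice (log2FC -0.72, SE 0.15, adjusted p = 0.0275, edgeR); the call was lost without any 1 of the 6 regular-fat mice, at -0.80 to -0.60, with library size alone (-0.56) and with the compared groups alone (-0.72). Agt, the precursor of angiotensin and a serpin without inhibitory action, was at 416 to 512 CPM in HF.Ctrl and at 684 to 752 in HF.SAAR mice, and rose (log2FC 0.70, SE 0.11, adjusted p = 0.00648, edgeR). Its call held in all 12 fits that left out 1 mouse. With library size alone Agt was called on regular fat too (0.49, adjusted p = 0.0368, edgeR).

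Of 20 other plasma protease inhibitors, 19 were tested and edgeR called 0 in either comparison, with 4 at an unadjusted p under 0.05 on regular fat and 3 on high fat; DESeq2 called 1 and 2. Of 14 proteases that these inhibitors are known to act on, 9 were tested. F11, coagulation factor XI, a target of alpha-1-antitrypsin, was the 1 called on either fat level. It ranged over 99.7 to 169 CPM in RF.Ctrl mice and over 59.5 to 69.2 in RF.SAAR mice, and fell (log2FC -1.05, SE 0.16, adjusted p = 0.00543, edgeR), a call that held in all 12 fits that left out 1 mouse. On high fat it was at 127 to 138 CPM in HF.Ctrl and 76.7 to 94.2 in HF.SAAR mice, at -0.69 (SE 0.16, adjusted p = 0.0426, edgeR), a call that held only without RF.Ctrl replicate 1 or 3 among those 12 fits, at -0.79 to -0.63, and that was lost with library size alone (-0.52) and offsets for effective length (-0.63). Neutrophil elastase (Elane), the main target of alpha-1-antitrypsin, reached at most 0.256 CPM in any mouse and was not tested.

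Of 17 liver transcription factors and genes of IL-6 signaling, the kind of regulators known to act on serpin genes in hepatocytes, all were tested. edgeR called 0 in either comparison, with 1 at an unadjusted p under 0.05 in each, and DESeq2 called 1 in each. The median log2FC of the list was -0.07 on regular fat and -0.18 on high fat. Onecut1, named after its values had been seen and not called by edgeR, was at 65.1, 94.9 and 67.5 CPM in RF.Ctrl mice. It was at 16.7, 35.7 and 22.1 CPM in RF.SAAR mice. On high fat it was at 102, 36.9 and 27.6 CPM in HF.Ctrl and at 11.5, 17.8 and 22.6 in HF.SAAR mice. Whether Onecut1 bears on the members was not tested. Of 15 genes of the secretory pathway of plasma glycoproteins, 0 were called on regular fat, where 8 had an unadjusted p under 0.05, the median was -0.30 and DESeq2 called 4. On high fat 1 was called higher, 4 had an unadjusted p under 0.05 and the median was -0.10. Mcfd2, a partner of the cargo receptor Lman1, was at 198 to 209 CPM in HF.Ctrl and 275 to 295 in HF.SAAR mice (log2FC 0.48, SE 0.10, adjusted p = 0.0201, edgeR), and the call was lost in 5 of the 12 fits, without HF.Ctrl replicate 1 or 3 or HF.SAAR replicate 1, 2 or 3, at 0.45 to 0.50 over the 12 fits, and with offsets for effective length (0.43) and the compared groups alone (0.47).

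Among genes without a Serpina symbol and with a mean of at least 10 CPM, the pattern over the 12 mice most like that of the summed Serpina1 counts was that of C8b, with Pearson's r of 0.951, followed by Cyp2d9 (0.943) and Selenbp2 (0.943). For deviations from group means, r was 0.648, 0.538 and 0.524. The summed Serpina3 members were most like Mup21 (0.974), Cyp2d9 (0.971) and C9 (0.969), with 0.750, 0.762 and 0.680 for the deviations. Serpina12 was most like Fga (0.961), Cyp2f2 (0.950) and Gabarapl2 (0.936), with 0.786, 0.819 and 0.791 for the deviations. These values are descriptive and share the diet groups and the libraries.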

How the data were processed

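Liver RNA of 12 mice was quantified by the authors with kallisto 0.46.2 on the transcripts of Ensembl release 94. The deposited estimated counts (expected counts) and TPM values are not normalized between mice, and the deposited effective lengths entered 1 alternative. Of 118489 transcripts 116816 matched the GENCODE annotation of GRCm38, and the rest held 1.08% of the counts. Counts were summed per gene, rounded and tested in R 4.3.3 with edgeR 4.0.16 (TMM, filterByExpr, robust quasi-likelihood F-test, all 12 mice in 1 fit, Benjamini-Hochberg over 14670 genes, called at an adjusted p under 0.05). limma 3.58.1 was loaded by edgeR, and DESeq2 1.42.0 was an alternative. The SE is the log2FC divided by the square root of F. Named are the members, the genes of each list called in a SAAR comparison (at most 6 by smallest p), the most abundant gene of each marker list, and the 3 genes most like each of 3 member patterns. Onecut1 was named outside this rule. The members and lists were chosen with earlier results of these data known. P-values measure the spread between mice. In the labels the tag names for diet and fat content look swapped, and groups follow the values. The test was tested on simulated data.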

Additional observations from a re-analysis of the deposited data

How the results depend on the processing

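Settings changed how many genes were called more than direction. Over the 12 fits that left out 1 mouse, the members called ranged from 2 to 5 on regular fat and from 1 to 4 on high fat, beside 87 to 244 and 110 to 310 of all genes, and the summed Serpina1 log2FC from -0.40 to -0.31 and from -0.56 to -0.43. In the same fits the calls ranged from 1 to 3 among other Serpina genes at each fat level, from 0 to 1 among serpins without a Serpina symbol on regular fat, and from 0 to 1 on high fat among plasma protease inhibitors, proteases and secretory genes. Tested by transcript, 0 members were called on regular fat, and 53 of 35707 transcripts in all. With the compared groups alone, 2 members were called on high fat, 0 serpins without a Serpina symbol on regular fat and 0 secretory genes on high fat. DESeq2 called 6 members on regular fat, 5 on high fat, 2 in HF.SAAR vs. RF.SAAR and 1 for the interaction. Of all 23891 genes it called 591, 595, 85 and 16 in these comparisons. It called 4 other Serpina genes, 1 plasma protease inhibitor, 1 transcription factor or IL-6 gene and 4 secretory genes on regular fat, and 3 other Serpina genes, 2 serpins without a Serpina symbol, 2 plasma protease inhibitors and 1 transcription factor or IL-6 gene on high fat. With library size alone the summed Serpina1 log2FC was -0.19 and -0.31, and 3 plasma protease inhibitors and 0 proteases were called on high fat, where 719 of all 14670 genes were called, against 289 on the TMM scale. Offsets for effective length left 1 other Serpina gene called on regular fat, and 0 proteases and 0 secretory genes on high fat. Without a filter, and with at least 10 counts in every mouse, 1 plasma protease inhibitor was called on high fat, and the latter also called 1 secretory gene on regular fat. Without the 5 mice with high acinar markers, chosen after seeing the data, 2 members and 1 other Serpina gene were called on regular fat and 0 serpins without a Serpina symbol, and on high fat 0 members, 0 other Serpina genes, 0 serpins without a Serpina symbol, 0 proteases and 0 secretory genes, with a summed Serpina1 log2FC of -0.25. Of all 15430 genes 81 and 6 were then called. That setting left 1 mouse in each high-fat group, and the cause of these differences was not tested. No paired analysis was run, because the labels name no replicate or batch.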
